A study of Mus musculus with 16 samples.

Results

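The genes described here encode the enzymes and receptors of the prostaglandin and leukotriene pathways. They are 10 genes, chosen by name for their role: Ptgs1, Ptgs2, Ptger3, Ptger4, Alox5, Alox5ap, Ltc4s, Lta4h, Cysltr1 and Ltb4r1. All 10 were among the 24532 genes of the expression table, and all 10 were among the 11335 genes that were tested, a test that needed 2 libraries with 1 FPKM or more. FPKM counts mapped fragments per length of transcript and per size of library, so levels can be set side by side between genes. RNA was sequenced from spleen cells of C57BL/6 mice aged 12 weeks, in 16 libraries that made up 8 groups of 2. Control mice gave 2 groups of conventional dendritic cells (cDCs), control cDC1s (sorted as XCR1+ 33D1-) and control cDC2s (XCR1- 33D1+). Mice given 3 once-daily injections of GM-CSF, a cytokine of myeloid cells, gave GM-CSF cDC1s, GM-CSF cDC2s and the XCR1- 33D1- cells of the same CD11c-high MHC II+ gate, called GM-CSF DC-Xs. The same treatment also gave 3 populations of CD11b+ CD115-high cells, with CD115 being the receptor for M-CSF. These were P-I (Ly6C+), P-III (Ly6C- MHC II+ CD301b-) and P-IV (Ly6C- MHC II+ CD301b+). DC-Xs consist mainly of P-IV cells with some P-III cells by the study's own description, so those groups overlap in what they contain. No CD115-high cells of control mice were sequenced, so the CD115-high populations have no untreated counterpart.

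Prostaglandins and leukotrienes are lipid mediators made from arachidonic acid, which phospholipases release from membranes. The cyclooxygenases, encoded by Ptgs1 and Ptgs2, turn arachidonic acid into prostaglandin H2, from which further synthases make prostaglandin E2, prostacyclin and thromboxane. The 5-lipoxygenase pathway turns the same substrate into leukotriene A4, which Lta4h hydrolyses to leukotriene B4, a chemoattractant of myeloid cells, or which Ltc4s joins to glutathione to start the cysteinyl leukotrienes. In dendritic cells, prostaglandin E2 is known for effects on maturation and migration.

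Depth could be read from regular steps in the low FPKM values of 11 libraries and was 24600000 to 47100000 fragments. No such steps were seen in the other 5, whose depth is unknown (both control cDC2 libraries, and the first replicate of the control and GM-CSF cDC1s and of the GM-CSF cDC2s). The replicates of a group correlated across genes with an r of 0.947 (control cDC1s) to 0.996 (P-IV), and the genes behind the sort gates followed the labels for the most part. The summed FPKM of Xcr1, Cd8a and Clec9a, markers of cDC1s, was 350.2 to 654 in cDC1s and at most 7.57 elsewhere. Clec4a4 and Sirpa, markers of cDC2s, summed to 345.7 to 453.5 in cDC2s but also to 311.2 and 321.9 in P-I. Clec4a4 alone was at means of 151 and 74.9 in control and GM-CSF cDC2s and 6.50 in P-I. Mgl2, the gene of CD301b, was at 772.7 and 803 in P-IV and still at 50.4 and 64.1 in P-III. Where a pair of marker sums or of Mgl2 values is given for a group, the lower library comes first, whatever its replicate number. A gene was called changed at a Benjamini-Hochberg adjusted p under 0.05 (limma, over all genes tested) with a log2 fold change of at least 1 in size. Fold changes are on the log2(FPKM + 1) scale, which understates the change of genes at low FPKM, and are given with their SE. In sorted populations measured in bulk, fewer cells that express a gene and less RNA of it per cell cannot be told apart.

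**Figure D1:**
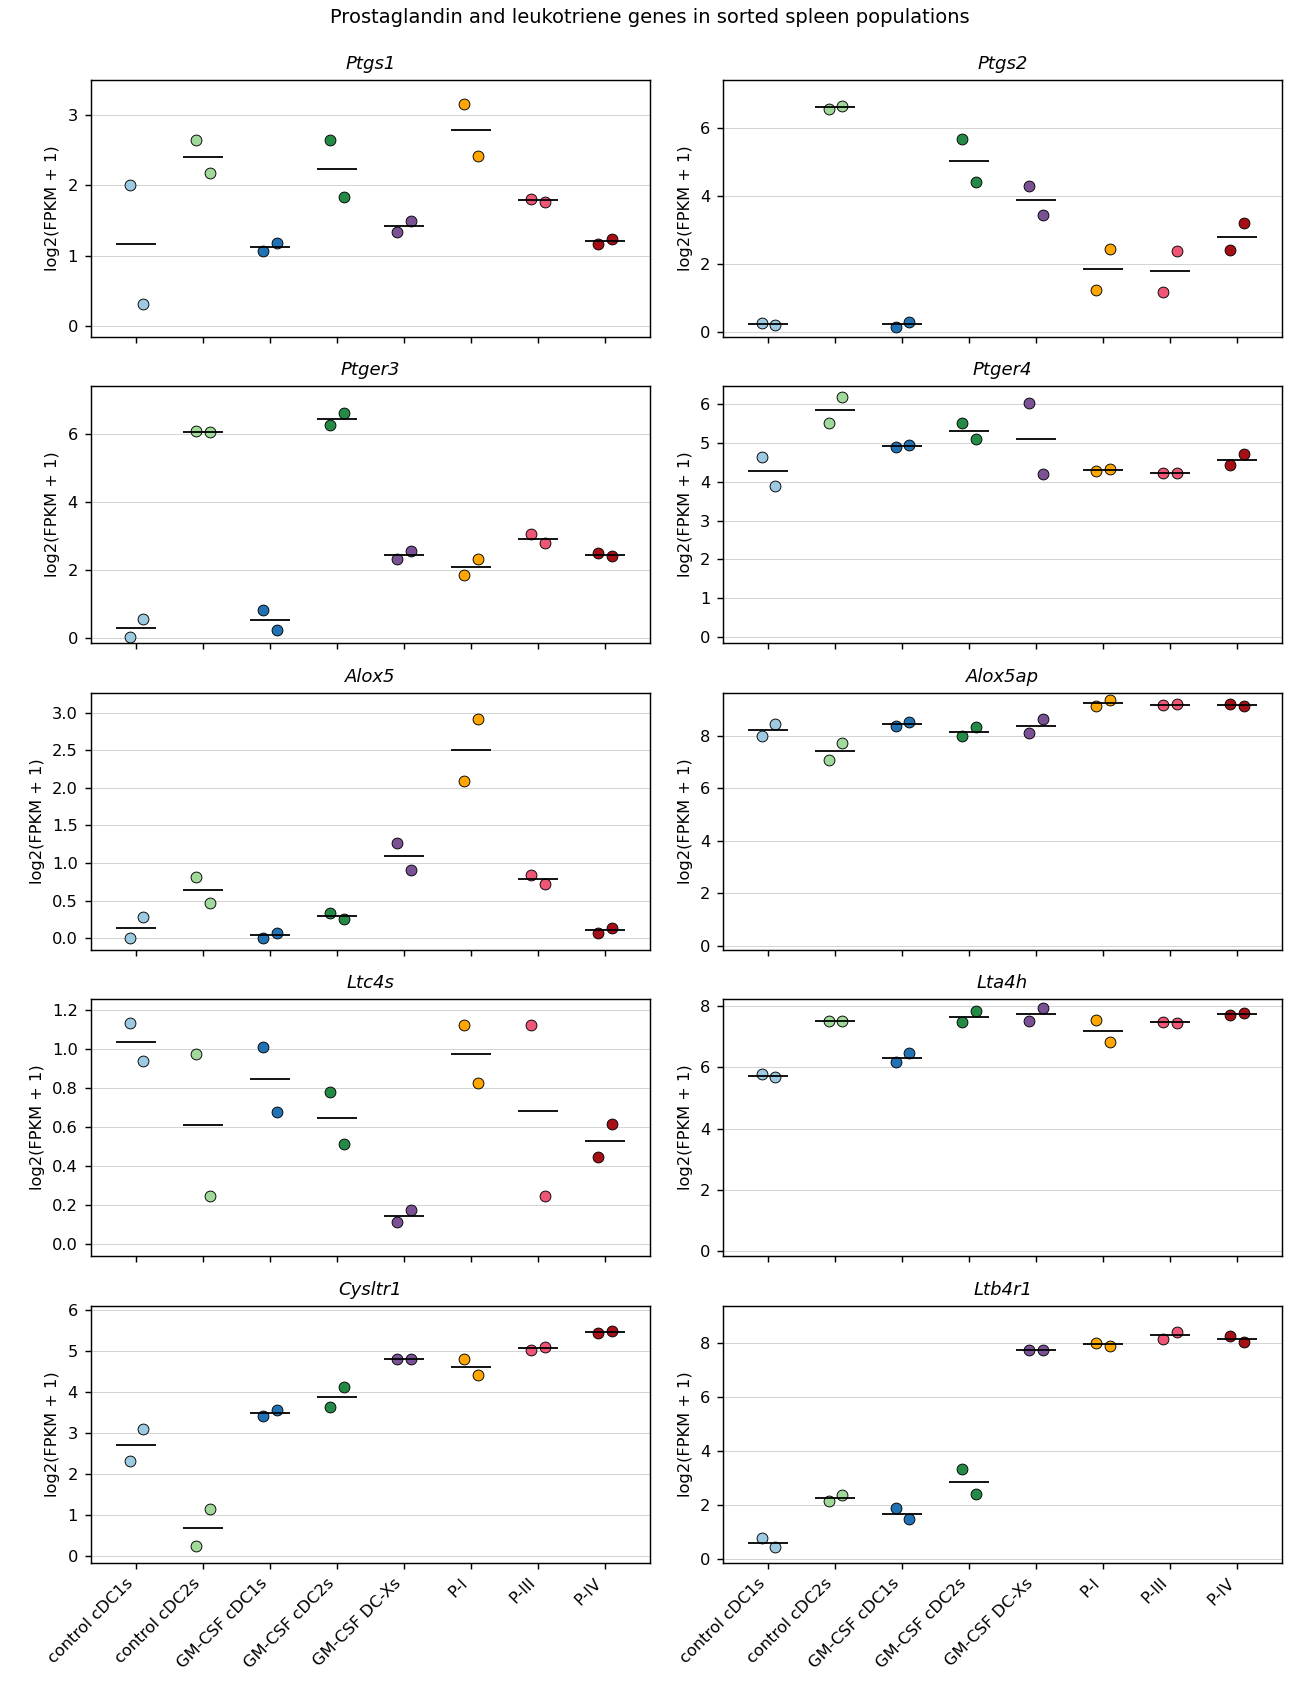
Level of each of the 10 genes as log2(FPKM + 1) on the vertical axis of its panel, for the 8 sorted populations on the horizontal axis; points are the 2 libraries of a group, bars their mean, and the vertical scale differs between panels. Ptgs2 and Ptger3 were highest in cDC2s and near 0 in cDC1s, Ltb4r1 was high in DC-Xs and the CD115-high populations, and Alox5ap was high in every population.

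Ptgs2, the inducible cyclooxygenase (chr1:150100031-150108234, build GRCm38, the assembly also called mm10), was highest in cDC2s. Its FPKM was 94.8 and 99.7 in control cDC2s and 50.2 and 20.1 in GM-CSF cDC2s. DC-Xs had 18.8 and 9.89 and P-IV 4.32 and 8.13. It was 1.34 and 4.46 in P-I and 1.24 and 4.24 in P-III. In cDC1s it was 0.183 and 0.135 without and 0.107 and 0.210 with GM-CSF. The order was thus control cDC2s, GM-CSF cDC2s, DC-Xs and P-IV, each separate from the next. P-I overlapped both P-IV and P-III, and all 4 cDC1 libraries were lowest. Ptgs2 was lower in cDC1s than in cDC2s by a log2 fold change of -6.41 ± 0.53 in control mice (adjusted p = 1.96e-06) and of -4.83 ± 0.53 in treated mice (adjusted p = 2.65e-05). Both libraries of GM-CSF cDC2s lay below both of control cDC2s, but the log2 fold change of -1.58 ± 0.53 did not pass the test (adjusted p = 0.0982).

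Ptgs1, the constitutive cyclooxygenase (chr2:36216742-36258593), was low in every population. Its FPKM was highest in P-I, at 7.93 and 4.34, followed by control cDC2s at 5.22 and 3.53 and GM-CSF cDC2s at 5.22 and 2.56. It was 2.48 and 2.41 in P-III, 1.53 and 1.83 in DC-Xs, 1.25 and 1.35 in P-IV and 1.10 and 1.26 in GM-CSF cDC1s. The replicates of control cDC1s were far apart, at 3.01 and 0.247. Ptgs1 exceeded Ptgs2 in FPKM in all 4 cDC1 libraries and in replicate 1 of P-I and of P-III, whereas Ptgs2 exceeded it in every cDC2, DC-X and P-IV library. Ptgs1 was called lower in control cDC1s than in control cDC2s (log2 fold change -1.25 ± 0.45, adjusted p = 0.0391) and lower in P-IV than in P-I (-1.59 ± 0.45, adjusted p = 0.0473). Neither call was stable. The first did not hold once control cDC1s replicate 2 was left out (adjusted p = 0.419), nor without control cDC2s replicate 1 (0.182) or control cDC2s replicate 2 (0.0578), nor under 5 of 10 other alternatives, and the second without any 1 of its 4 libraries (adjusted p = 0.0818 to 0.344). Platelet markers, of cells known for this enzyme, summed to 0.179 to 3.62 FPKM over 6 genes in all libraries.

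Ptger3 encodes EP3, a prostaglandin E2 receptor that lowers cyclic AMP (chr3:157566821-157644758). It divided the cDC subsets as Ptgs2 did. Its FPKM was 65.9 and 65.6 in control cDC2s and 74.6 and 96.2 in GM-CSF cDC2s, against 0.0130 and 0.476 in cDC1s of control mice and 0.780 and 0.167 in those of treated mice. Between these extremes lay P-III at 7.26 and 5.94, P-IV at 4.67 and 4.25, DC-Xs at 3.98 and 4.92 and P-I at 2.57 and 3.98. All 4 cDC2 libraries stood above all others, and DC-Xs overlapped both P-IV and P-I. The log2 fold change of cDC1s against cDC2s was -5.77 ± 0.28 in control mice (adjusted p = 2.02e-08) and -5.90 ± 0.28 in treated mice (adjusted p = 2.91e-08). GM-CSF did not change it beyond the test in cDC1s (0.24 ± 0.28, adjusted p = 0.578) or in cDC2s (0.36 ± 0.28, adjusted p = 0.500).

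Ptger4 encodes EP4, a prostaglandin E2 receptor that raises cyclic AMP (chr15:5233399-5244187), and was present in every library at 13.9 to 71.3 FPKM. Its FPKM was 44.5 and 71.3 in control cDC2s, 44.2 and 33.2 in GM-CSF cDC2s, 23.8 and 13.9 in cDC1s of control mice and 28.8 and 29.6 in those of treated mice. The CD115-high populations were close together, with 18.5 and 18.9 in P-I, 17.7 in both P-III libraries and 20.4 and 25.0 in P-IV. The DC-X libraries disagreed, at 63.8 and 17.2, which spans nearly the whole range over the other populations. Ptger4 was called lower in control cDC1s than in control cDC2s (log2 fold change -1.58 ± 0.46, adjusted p = 0.0136), but not without control cDC1s replicate 2 (adjusted p = 0.105) or control cDC2s replicate 2 (adjusted p = 0.0996), with library weights (0.0965), with the length correction (0.0735) or with the compared libraries alone (0.0595). After GM-CSF the difference of cDC1s from cDC2s was -0.38 ± 0.46 (adjusted p = 0.637). The libraries were not made to keep strand, and exons of Ptger4 share 1015 bases with Gm15937 and 82 with Ttc33 on the opposite strand, whose reads cannot be told apart there.

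The promoters of Ptgs2 and Ptger3, the pair highest in cDC2s, are shown here with that of Ltb4r1, the leukotriene receptor high in the CD115-high populations, so that the regulatory DNA of both patterns can be read. They are from RefSeq (build GRCm38.p6), 5′ to 3′ on the plus strand, and end 1 base before the first annotated base of the gene. Capitals mark matches to the motifs named in the next paragraph. The windows are chr1:150099781-150100030 for Ptgs2, chr3:157566626-157566820 for Ptger3 and chr14:55765712-55765961 for Ltb4r1.
Ptgs2: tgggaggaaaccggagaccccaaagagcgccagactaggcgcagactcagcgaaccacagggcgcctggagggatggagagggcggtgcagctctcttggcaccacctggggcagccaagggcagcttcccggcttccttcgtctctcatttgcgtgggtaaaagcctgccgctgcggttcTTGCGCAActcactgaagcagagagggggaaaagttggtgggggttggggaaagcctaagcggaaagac
Ptger3: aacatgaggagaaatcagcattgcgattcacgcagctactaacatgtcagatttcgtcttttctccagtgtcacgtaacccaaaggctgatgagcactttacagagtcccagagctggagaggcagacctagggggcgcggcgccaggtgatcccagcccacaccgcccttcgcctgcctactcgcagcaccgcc
Ltb4r1: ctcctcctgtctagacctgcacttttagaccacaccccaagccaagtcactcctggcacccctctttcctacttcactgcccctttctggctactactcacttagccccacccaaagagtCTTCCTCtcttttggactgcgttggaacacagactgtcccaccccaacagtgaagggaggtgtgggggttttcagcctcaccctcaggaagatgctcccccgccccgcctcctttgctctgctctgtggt

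A window was on hand for 8 of the 10 genes, and 7 were searched, with that of Ptgs1 left out because it lies inside the annotated gene. Both strands were searched for 6 motifs, none of which holds another: PU.1 (GAGGAAG), C/EBP (TTGCNNAA), NF-kB (GGGANTTNC), AP-1 (TGANTCA), E-box (CACGTG) and TATA box (TATAAA). Ptgs2 held the palindromic C/EBP letters, with their first base 69 bases before the gene start. Ltb4r1 held the PU.1 letters on the minus strand, with the first base of the match 130 bases before the start. Ptger3 and the other 4 windows held none. Of 32851 promoter windows of the same 250 bases, 9.56% held the C/EBP letters and 10.6% the PU.1 letters, so neither match is rare. A match is a description of the letters and not evidence that a factor binds.

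The genes of leukotriene synthesis differed widely in level. Alox5ap, which encodes FLAP, the protein that presents arachidonic acid to 5-lipoxygenase (chr5:149265004-149288153), had the highest FPKM of the 10 genes in every library except control cDC2s replicate 1. It was 570 and 662 in P-I, 574 and 597 in P-III and 601 and 565 in P-IV. It was 274 and 400 in DC-Xs, 254 and 346 in control cDC1s (331 and 365 after GM-CSF) and 136 and 211 in control cDC2s (254 and 322 after GM-CSF). All 6 libraries of the CD115-high populations lay above the other 10. These 10 include DC-Xs, although DC-Xs are mainly P-IV cells by the study's description. Alox5ap was called higher in P-IV than in GM-CSF cDC2s (difference in log2 1.03 ± 0.25, adjusted p = 0.00982), close to the fold limit. That call was lost without GM-CSF cDC2s replicate 1 (adjusted p = 0.0803), P-IV replicate 1 (0.0742) or P-IV replicate 2 (0.0506), and the difference fell under the fold limit with quantile normalization (0.75) and the length correction (0.97). Against GM-CSF cDC1s the log2 fold change was 0.75 ± 0.25 (adjusted p = 0.0518), and GM-CSF against control cDC2s gave 0.75 ± 0.25 (adjusted p = 0.0983).

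Alox5, 5-lipoxygenase itself (chr6:116410071-116461178), was by contrast low outside P-I, and close to the limit of detection in P-IV and the cDCs. Its FPKM was 3.26 and 6.54 in P-I, 1.40 and 0.883 in DC-Xs, 0.790 and 0.655 in P-III and 0.0486 and 0.102 in P-IV. In cDC2s it was 0.756 and 0.391 without and 0.267 and 0.199 with GM-CSF. In cDC1s it was listed at 0 in replicate 1 of both groups and was 0.214 and 0.0537 in replicate 2 of control and GM-CSF cDC1s. Both P-I libraries stood above all others. Alox5 was lower than in P-I by -1.72 ± 0.26 in P-III (log2 fold change, adjusted p = 0.00227) and by -2.40 ± 0.26 in P-IV (adjusted p = 7.03e-05). Neutrophils are also known for this enzyme, and their markers were highest in P-I too. Elsewhere the 2 did not follow each other. The markers summed to 3.82 and 5.61 in GM-CSF cDC1s and to 5.51 and 11.4 in GM-CSF cDC2s, where Alox5 was lower than in P-III. All 8 neutrophil markers had a mean of 1 FPKM or more in P-I, summing to 124.4 and 277.5, whereas they summed to 0.342 to 0.736 in P-III and P-IV, with S100a8, S100a9, Ly6g, Retnlg and Camp at 0 in all 4 libraries. Their part in the Alox5 level of P-I was not tested.

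Lta4h, the hydrolase that makes leukotriene B4 (chr10:93453396-93484896), was abundant in all populations and lowest in cDC1s. Its FPKM was 54.6 and 50.2 in cDC1s of control mice and 71.1 and 87.9 in those of treated mice. It was 181 and 184 in control cDC2s, 178 and 228 in GM-CSF cDC2s, 185 and 113 in P-I, 180 and 176 in P-III and 211 and 220 in P-IV, with 181 and 247 for DC-Xs. All 4 cDC1 libraries lay below the other 12. The log2 fold change of cDC1s against cDC2s was -1.78 ± 0.24 in control mice (adjusted p = 9.02e-05) and -1.34 ± 0.24 in treated mice (adjusted p = 0.00132), and P-IV exceeded GM-CSF cDC1s by 1.44 ± 0.24 (adjusted p = 0.000703). Ltc4s, the synthase of leukotriene C4 (chr11:50236461-50238532), stayed between 0.0838 and 1.19 FPKM in all libraries and was called in no comparison. Its exons share 268 bases with Gm26542 on the opposite strand.

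Ltb4r1 encodes BLT1, the high-affinity receptor for leukotriene B4 (chr14:55765962-55768492), and separated DC-Xs and the CD115-high populations from the cDCs. Its FPKM was 253 and 234 in P-I, 280 and 339 in P-III, 300 and 257 in P-IV and 211 and 210 in DC-Xs. In cDC2s it was 3.38 and 4.11 in control and 8.96 and 4.24 in treated mice, and in cDC1s 0.680 and 0.348 in control and 2.66 and 1.73 in treated mice. The lowest library of the first 4 groups was at 210 and the highest of the cDCs at 8.96. P-IV exceeded GM-CSF cDC1s by a log2 fold change of 6.46 ± 0.27 (adjusted p = 8.91e-09) and GM-CSF cDC2s by 5.27 ± 0.27 (adjusted p = 1.04e-07). Within the cDCs, Ltb4r1 was lower in cDC1s than in cDC2s, by -1.65 ± 0.27 in control mice (adjusted p = 0.000441) and by -1.19 ± 0.27 in treated mice (adjusted p = 0.00731). The latter call was lost without GM-CSF cDC1s replicate 2 (adjusted p = 0.0613) or GM-CSF cDC2s replicate 1 (adjusted p = 0.0714). Csf1r, the gene of CD115, moved with Ltb4r1, at means of 396 in P-IV and 37.9 in GM-CSF cDC2s. Itgam, the gene of CD11b, was near absent from cDC1s but separated cDC2s far less. Its means were 83.4 in P-IV and 65.6 in GM-CSF cDC2s. The sums of Csf1r and Itgam therefore mostly follow Csf1r. They summed to 478 to 619.4 FPKM in the CD115-high populations and 481.4 and 508.9 in DC-Xs, 98.8 to 124.7 in cDC2s and 1.22 to 12.0 in cDC1s.

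Cysltr1, a receptor for cysteinyl leukotrienes (chrX:106576509-106603679), was highest in P-IV, at 42.4 and 43.6 FPKM, followed by P-III at 31.7 and 33.5, DC-Xs at 27.2 and 26.8 and P-I at 27.2 and 20.3. It was 11.5 and 16.5 in GM-CSF cDC2s, 9.76 and 10.8 in GM-CSF cDC1s, 3.99 and 7.63 in control cDC1s and 0.192 and 1.21 in control cDC2s. Neighbours in this order were separate except DC-Xs and P-I, which overlapped. P-IV exceeded GM-CSF cDC1s by a log2 fold change of 1.96 ± 0.32 (adjusted p = 0.000598) and GM-CSF cDC2s by 1.57 ± 0.32 (adjusted p = 0.00311). In control mice Cysltr1 was higher in cDC1s than in cDC2s (2.01 ± 0.32, adjusted p = 0.000313), the reverse of Ptgs2, Ptger3, Lta4h and Ltb4r1. In treated mice the same difference was -0.39 ± 0.32 (adjusted p = 0.447).

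**Figure D2:**
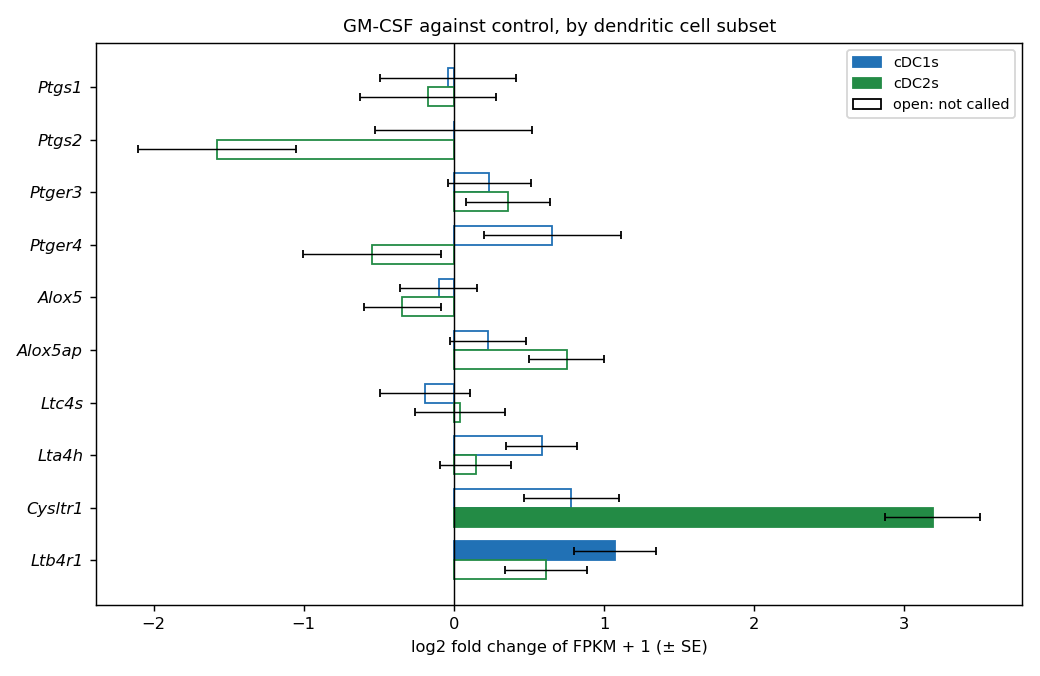
Log2 fold change of FPKM + 1 (horizontal axis) of GM-CSF against control for each of the 10 genes, in cDC1s (blue) and cDC2s (green), n = 2 libraries per group; filled bars passed the test, open bars did not, and error bars are the SE. Cysltr1 in cDC2s (3.19) stood out from the other bars, and Ptgs2 in cDC2s (-1.58) was the largest that did not pass.

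GM-CSF changed 1 of the 10 genes in each cDC subset. In cDC2s 14.0 ± 3.51 FPKM of Cysltr1 (SD, n = 2) stood against 0.701 ± 0.721 in control cDC2s, a log2 fold change of 3.19 ± 0.32 (adjusted p = 0.000179). This was the single call among the 10 genes, where 5.28% of all tested genes were called. It held without any 1 of the 4 libraries, and was not called in a fit to those 4 libraries alone (adjusted p = 0.153). In cDC1s the call was Ltb4r1, which rose by 1.07 ± 0.27 (adjusted p = 0.0147), again 1 of 10 genes against 14.8% of all genes. Leaving out control cDC1s replicate 2 gave an adjusted p of 0.0833 and leaving out GM-CSF cDC1s replicate 1 gave 0.0920, and the call was lost. Under quantile normalization its log2 fold change was 0.93, and it was not called with library weights or in a fit to the 4 libraries alone. Some genes of the CD115-high populations rose in the same cDC1s, Csf1r from 6.58 and 1.09 to 11.3 and 7.87 FPKM (1.39 ± 0.41, adjusted p = 0.0283) and Mgl2 from 0 and 0.134 to 3.74 and 6.13 (2.45 ± 0.32, adjusted p = 0.000908). Itgam had a mean of 0.0873 before and 0.550 after. Others did not rise: Ccr2 was at 9.55 and 20.2 before and 13.3 and 11.7 after, and Ly6c2 at 4.37 and 13.9 before and 5.12 and 6.03 after. The part of these genes in the Ltb4r1 rise was not tested. Cysltr1 in cDC1s had a log2 fold change of 0.78 ± 0.32 (adjusted p = 0.0862).

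The difference between the effects in cDC1s and in cDC2s was tested directly. Cysltr1 was the single call of the 10 genes (difference of log2 fold changes -2.41 ± 0.45, adjusted p = 0.0152), against 6.84% of all genes. The effect was thus larger in cDC2s. The call held without any 1 of the 8 libraries but not with weights that give less say to more variable libraries (adjusted p = 0.126). For Ptgs2 the difference was 1.58 ± 0.74 (adjusted p = 0.188) and for Ptger4 1.20 ± 0.65 (adjusted p = 0.245), so a difference between the subsets was not shown for either. Markers of other cells were examined beside the rise of Cysltr1 in cDC2s. Adgre1, the macrophage gene of F4/80, rose there from 116.8 and 132.4 to 232.3 and 309.6 FPKM (1.10 ± 0.29, adjusted p = 0.0395). The 9 red pulp macrophage markers that include it summed to 231.7 and 374 before and 355.7 and 373.7 after. Other members of that list did not all rise. The means of C1qa (25.1 to 8.90), C1qb (39.0 to 17.2), Axl (14.3 to 7.17), Hmox1 (43.7 to 23.2) and Cd163 (1.37 to 0.883) were lower after GM-CSF. The basophil protease gene Mcpt8 rose from 0.0179 and 0.142 to 2.86 and 0.893 (1.33 ± 0.36, adjusted p = 0.0435). Its list of 8 mast cell, basophil and eosinophil markers summed to 68.3 and 110.4 before and 75.4 and 112.3 after. Kit alone was 65.2 and 107.5 of this before and 69.1 and 110.3 after. Of the same list, the means of Cpa3 (0.667 to 1.05) and Gata2 (0.0364 to 0.426) rose, and that of Il5ra (0.136 to 0.0141) fell. Mgl2, which encodes the CD301b of P-IV, was at 1.14 and 2.70 FPKM in GM-CSF cDC2s and at 0 and 0.597 in control cDC2s, against 772.7 and 803 in P-IV, and Csf1r with Itgam summed to 98.8 and 124.7 in control cDC2s and to 103.2 and 103.9 after GM-CSF. The neutrophil markers summed to 1.70 and 4.08 in control cDC2s and to 5.51 and 11.4 after GM-CSF. The part of any of these in the result was not tested.

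Between the cDC subsets most of these genes differed. In control mice 7 of 10 were called, where 31.8% of all tested genes were. Ptgs2, Ptger3, Lta4h, Ltb4r1, Ptger4 and Ptgs1 were lower in cDC1s, and Cysltr1 was higher. The median log2 fold change of the 10 genes was -1.41, beside -0.26 over all genes tested, a shift that quantile normalization reduced to 0.02 without turning the direction of any called gene. In treated mice 4 of 10 were called, all lower in cDC1s (Ptger3, Ptgs2, Lta4h and Ltb4r1), where 14.8% of all genes were, with medians of -0.75 and -0.10. Other markers that moved with the cDC2 subset were those of red pulp macrophages, which summed over 9 genes to 231.7 to 374 FPKM in cDC2s and 42.2 to 142 in cDC1s, and those of mast cells, basophils and eosinophils, at 68.3 to 112.3 and 11.5 to 72.0. Adgre1 carried much of the macrophage contrast, with means of 124.6 in control and 270.9 in GM-CSF cDC2s against 2.58 and 6.81 in cDC1s. C1qa, C1qb and Axl were also higher in mean in cDC2s of both treatments. Hmox1 was alike, at means of 43.7 and 23.2 in cDC2s against 44.1 and 24.8 in cDC1s. Most of the sum of the mast cell, basophil and eosinophil list was Kit, which alone was at 65.2 to 110.3 in cDC2s and 11.0 to 70.0 in cDC1s. Of that list Epx was at 0 in all cDC2 libraries, and 2 or 3 of its 8 genes had a mean of 1 FPKM or more there. T cell markers summed to 64.2 to 133.6 in cDC2s and 1.91 to 4.74 in cDC1s, with Cd4, which splenic cDC2s are also known to express, as the single gene of the 4 measured with a mean of 1 FPKM or more in each cDC2 group. Their part in the results was not tested.

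**Figure D3:**
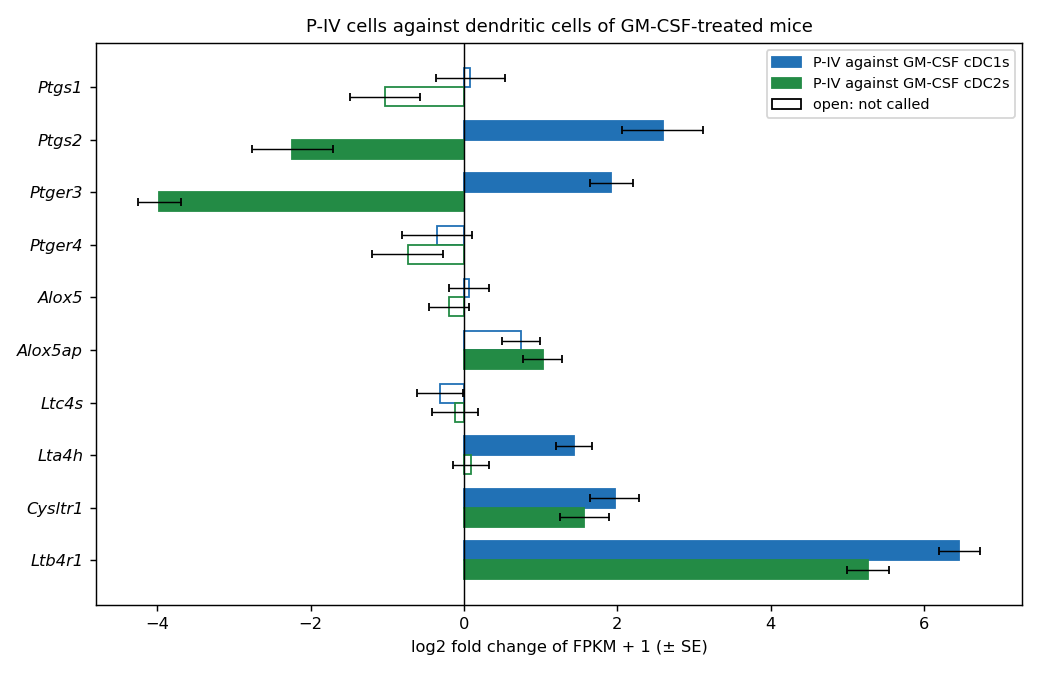
Log2 fold change of FPKM + 1 (horizontal axis) of P-IV against GM-CSF cDC1s (blue) and GM-CSF cDC2s (green) for each of the 10 genes, n = 2 libraries per group; filled bars passed the test, open bars did not, and error bars are the SE. Ltb4r1 and Cysltr1 were higher in P-IV than in both subsets, while Ptgs2 and Ptger3 were higher than in cDC1s and lower than in cDC2s.

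P-IV, the CD301b+ population, differed from each cDC subset of the same treatment in 5 of the 10 genes. Against GM-CSF cDC1s all 5 were higher, where 15.4% of all genes were called: Ltb4r1, Cysltr1, Lta4h, Ptgs2 by 2.59 ± 0.53 (adjusted p = 0.00313) and Ptger3 by 1.92 ± 0.28 (adjusted p = 0.000252). Against GM-CSF cDC2s, Ltb4r1, Cysltr1 and Alox5ap were higher and Ptger3 and Ptgs2 lower, where 16.4% of all genes were called. Ptger3 was lower by -3.97 ± 0.28 (adjusted p = 8.37e-07) and Ptgs2 by -2.24 ± 0.53 (adjusted p = 0.00797). The Ptgs2 call against cDC2s was lost without GM-CSF cDC2s replicate 1 (adjusted p = 0.0867) or P-IV replicate 1 (adjusted p = 0.0885), and with the compared libraries alone (adjusted p = 0.0503). Both comparisons share the P-IV libraries. Red pulp macrophage markers, summed over 9 genes, were at 254.7 and 266.5 FPKM in P-IV, 45.1 and 92.2 in GM-CSF cDC1s and 355.7 and 373.7 in GM-CSF cDC2s. Most of the sum in P-IV and cDC2s was Adgre1, with means of 154.0 and 270.9. Single markers went either way. Axl was at means of 28.4 in P-IV, 3.05 in cDC1s and 7.17 in cDC2s, and C1qa at 3.33, 4.75 and 8.90. The part of these markers in the differences was not tested. Ptgs2 and Ptger3 in P-IV were intermediate, 0.107 to 0.780 FPKM in GM-CSF cDC1s and 20.1 to 96.2 in GM-CSF cDC2s lying on either side of 4.25 to 8.13 in P-IV.

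Among the CD115-high populations few of the genes differed. P-III against P-I gave 1 call of 10, Alox5, where 3.51% of all genes were called. P-IV against P-I gave 2, Alox5 and Ptgs1, both lower, where 7.30% were. P-IV against P-III gave 0 calls of 10 by limma, with 0.591% of all genes called and 467 genes at an unadjusted p under 0.05, of which Alox5 was 1 (unadjusted p = 0.0206). The largest log2 fold changes of P-IV against P-III were 1.02 ± 0.53 for Ptgs2 and -0.68 ± 0.26 for Alox5. DC-Xs against P-IV also gave 0 calls of 10 by limma, with 1.96% of all genes called and 1532 at an unadjusted p under 0.05. Alox5 (0.98 ± 0.26, adjusted p = 0.0679) and Alox5ap (-0.81 ± 0.25, adjusted p = 0.123) had the smallest p-values, and Alox5 was called with a pseudocount of 0.1 (adjusted p = 0.0311) and with quantile normalization (adjusted p = 0.0493). The mean FPKM of Ptger3 was 4.45 ± 0.67 for DC-Xs and 4.46 ± 0.29 for P-IV (SD, n = 2), a log2 fold change of -0.01 ± 0.28.

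Other genes of the pathway were taken from a list of 49 chosen by role, of which 32 were tested. Upstream of both branches, Pla2g4a, the cytosolic phospholipase A2 that releases arachidonic acid, was also higher in cDC2s than in cDC1s. Its FPKM was 16.9 and 13.3 in control cDC2s, 15.8 and 13.3 in P-I and 2.06 and 3.83 in control cDC1s, a log2 fold change of cDC1s against cDC2s of -2.05 ± 0.32 (adjusted p = 0.000281), and in treated mice -2.37 ± 0.32 (adjusted p = 0.000161). Downstream of the cyclooxygenases, the inducible prostaglandin E synthase Ptges was at most 0.481 FPKM in any library and was not tested, while Ptges3, its cytosolic counterpart, was at 48.6 to 104 in all. Hpgds, which makes prostaglandin D2, was at 10.7 and 6.79 in control cDC2s and 0.367 and 2.05 in control cDC1s. Of the other prostaglandin E2 receptor genes, Ptger2 was low but higher in control cDC1s, at 1.88 and 1.69 against 0 in both control cDC2 libraries. Its log2 fold change was 1.48 ± 0.25 (adjusted p = 0.000506), not called with library weights. Ptger1 was lower in control cDC1s (-1.56 ± 0.58, adjusted p = 0.0430), a call lost without any 1 library. In that comparison 8 of the 32 were higher in cDC1s and 8 lower (median -0.11, beside -0.26 over all genes), where 31.8% of all tested genes were called, and in treated mice 6 were higher and 4 lower (median -0.01, beside -0.10), where 14.8% were.

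Prostacyclin synthase, its receptor and thromboxane A synthase also divided the populations. Ptgis, prostacyclin synthase, was at 59.9 and 46.8 FPKM in cDC1s of control mice and 19.0 and 10.2 in those of treated mice, and at most 0.820 in the other 12 libraries. It was lower with GM-CSF in cDC1s by a log2 fold change of -1.85 ± 0.30 (adjusted p = 0.00196). Its receptor gene Ptgir was instead at 27.4 to 63.5 in DC-Xs and the CD115-high populations and at most 0.346 in all 8 cDC libraries. P-IV exceeded GM-CSF cDC2s in Ptgir by 5.70 ± 0.26 (adjusted p = 3.87e-08). Tbxas1, thromboxane A synthase, was at 106 and 105 in P-IV, with DC-Xs at 109 and 119, against 19.5 and 17.8 in GM-CSF cDC1s and 3.40 and 1.33 in GM-CSF cDC2s, so that P-IV exceeded cDC2s by 5.06 ± 0.31 (adjusted p = 3.18e-07). Pla2g7, which inactivates platelet-activating factor, was at 239 and 256 in P-IV against 40.2 and 20.1 in GM-CSF cDC2s (3.07 ± 0.52, adjusted p = 0.000911).

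**Figure D4:**
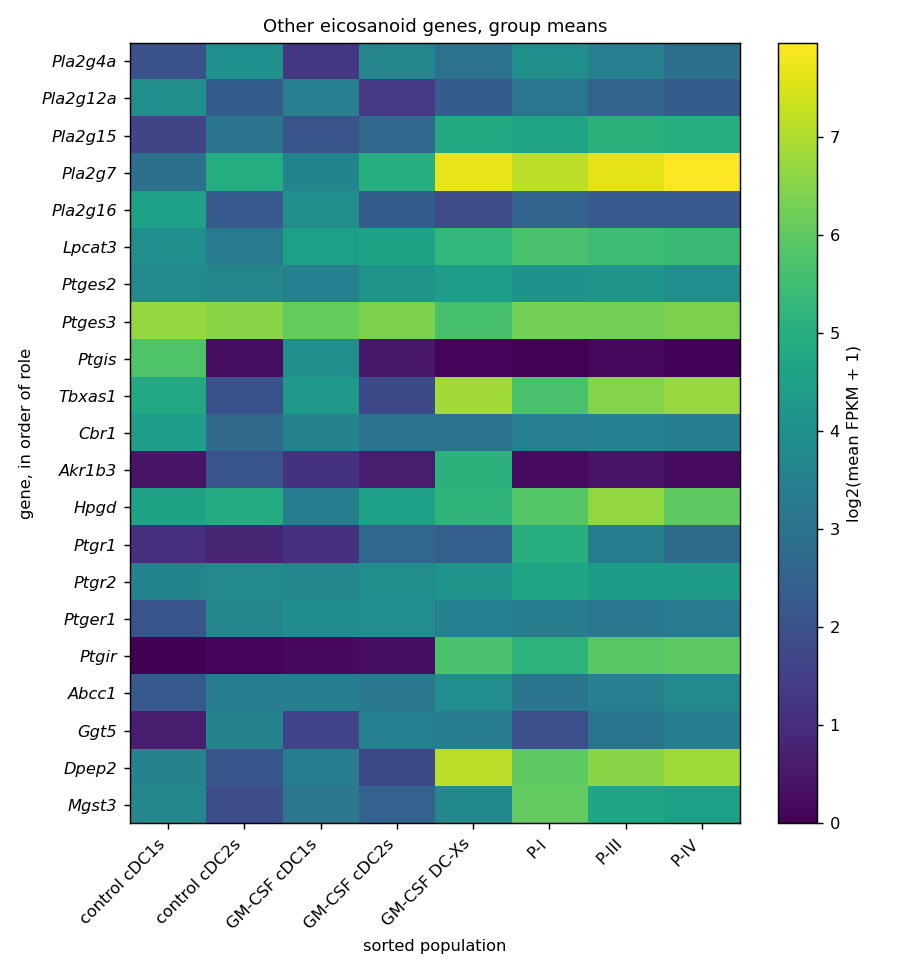
Mean level of 21 further eicosanoid genes with a group mean of at least 10 FPKM (rows, in order of role) in the 8 sorted populations (columns); colour is log2(mean FPKM + 1), n = 2 libraries per group. Ptgir, Pla2g7, Tbxas1 and Dpep2 were high in DC-Xs and the CD115-high populations, Ptgis in cDC1s, and Mgst3 and Ptgr1 in P-I; the high Akr1b3 mean in DC-Xs rests on 1 library (64.1 against 2.49 FPKM).

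Beyond Ltc4s, genes that process or respond to leukotrienes were unevenly spread. Dpep2, a dipeptidase that converts leukotriene D4 to leukotriene E4, was at 117 and 107 FPKM in P-IV and 3.44 and 1.47 in GM-CSF cDC2s (difference in log2 5.10 ± 0.26, adjusted p = 1.04e-07). Ggt5, which makes leukotriene D4 from leukotriene C4, was at 8.40 and 13.3 in control cDC2s against 0.520 and 0.613 in control cDC1s (-2.89 ± 0.28 in cDC1s, adjusted p = 8.10e-06). Mgst3, a microsomal glutathione transferase, was highest in P-I at 69.1 and 60.4, against 24.1 and 25.4 in P-III and 22.5 and 21.4 in P-IV (-1.51 ± 0.18 for P-IV against P-I, adjusted p = 0.000182). Ptgr1, which inactivates leukotriene B4 and prostaglandins, was at 30.8 and 30.1 in P-I, and was lower in P-IV than in P-I by -2.17 ± 0.29 (adjusted p = 0.000406). The neutrophil markers described with Alox5 were high in P-I as well, and their part in the levels of Mgst3, Ptgr1 and Ptgs1 there was not tested. The second receptors, Cysltr2 and Ltb4r2, were at most 1.18 and 0.345 FPKM in any library.

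By count, 10 of the 32 tested list genes were higher and 4 lower in P-IV than in GM-CSF cDC1s (median log2 fold change 0.33, beside 0.00 over all genes), and 9 higher and 4 lower than in GM-CSF cDC2s (0.26, beside -0.09), where 15.4% and 16.4% of all genes were called. P-III against P-I gave 1 higher and 3 lower, where 3.51% of all genes were called, and P-IV against P-I 2 higher and 3 lower, where 7.30% were. P-IV against P-III and DC-Xs against P-IV gave 0 in either direction by limma, where 0.591% and 1.96% were. With GM-CSF, cDC1s had 4 higher (Acsl4, Abcc4, Ptgdr2 and Abcc1) and 2 lower (Ptgis and Hpgd), a share near the 14.8% of all genes, and of these the Ptgis call alone held without any 1 library. In cDC2s 2 were higher (Ptgr1 and Lpcat3) and 1 lower (Pla2g4f), where 5.28% of all genes were called, and Ptgr1 alone held in the same way. Ptgr1 rose in cDC2s from 0.505 and 1.04 to 5.09 and 5.57 FPKM, a log2 fold change of 1.85 ± 0.29 (adjusted p = 0.00280).

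As a description, the genes whose log2(FPKM + 1) over the 16 libraries was most like each gene were listed, with no test, since all the points share the same 16 libraries and 8 sorted populations. Ltb4r1 was most like Ccl9 (Pearson r = 0.993), Svil (0.989) and Lrp1 (0.986). Ptger3 was most like Camkmt (0.986), Cyp4f37 (0.977) and Stat4 (0.973), and Ptgs2 like Cd274 (0.960), Gm16894 (0.947) and Klri2 (0.945). Cysltr1 was most like Tax1bp3 (0.963), Dstn (0.947) and Ahnak (0.947), and Alox5ap like Tnfaip8l2 (0.961), Fam89b (0.959) and Gamt (0.954). Lta4h was most like Kif9 (0.958), and Ptger4 like Ehd1 (0.930), Dusp5 (0.908) and Ralgds (0.906). Among the 10 genes themselves the closest pairs over the same libraries were Ptger3 with Ptgs2 (0.893) and Alox5ap with Cysltr1 (0.862).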

How the data were processed

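RNA of flow-sorted spleen cells was made into cDNA libraries by the authors with a SMARTer Ultra low input kit and sequenced on an Illumina NovaSeq. Per the submitters' processing notes, bcl2fastq 1.8.4, HISAT2 2.1.0 and StringTie 1.3.4d were used with build mm10. The deposited values are FPKM for 24532 genes in each of 16 libraries, and counts were not used here. FPKM does not correct for a loss of long or short transcripts that differs between libraries.

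Groups came from the sample labels, and replicates are separate mice by the study's methods. The 10 genes, the list of 49, the marker lists and the tests were chosen with earlier results of these data known. Named genes were the 10, the called genes of the list and its highest genes, and, for each of the 10 with a group mean of at least 10 FPKM, the 3 genes with the highest Pearson r. Some called list genes are given by count alone, and for Lta4h only the first of its 3 is reported here. Log2(FPKM + 1) was tested with limma 3.58.1 (lmFit, eBayes with trend) in R 4.3.3, all 16 libraries in 1 fit with a mean per group (8 residual degrees of freedom), so that p-values rest on the spread pooled over 8 groups. That spread was unequal, with a root mean square SD between replicates of 0.517 in control cDC1s and 0.135 in P-IV. An SE given here is thus not the spread of the groups compared. Genes reaching 1 FPKM in 2 libraries were kept, and 11 comparisons were adjusted each over 11335 genes. The fit was tested on simulated data. Alternatives were a pseudocount of 0.1, no filter, a filter at 5 FPKM, quantile and median-of-ratios scaling, no variance trend, library weights, a transcript length correction, a replicate block, the compared libraries alone and leaving out each library. Lengths (GENCODE M21) were found for 99.6% of tested genes. Coordinates are of GRCm38. Deviations of same-numbered samples correlated in part: r exceeded 0.1 in 8 of 10 pairs among the cDC and DC-X groups (-0.014 to 0.671), in 2 of 3 pairs of CD115-high populations and in 0 of 15 pairs between both kinds (-0.203 to 0.070). The sources used here do not say that a replicate number marks 1 mouse, so these numbers were not taken as pairs. In the submitters' own library numbering, all CD115-high libraries come after all cDC and DC-X libraries. Whether both kinds were prepared together is not stated in the sources used here. The part of this in comparisons between both kinds was not tested. Python 3.11.15 with pandas 2.3.3, numpy 2.4.6 and matplotlib 3.10.9 served for tables and figures.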

Additional observations from a re-analysis of the deposited data

Results flagged for a closer look

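The effect of GM-CSF differed between the cDC subsets for Cysltr1, by the test of the difference itself: the log2 fold change in cDC1s minus that in cDC2s was -2.41. In the list of further eicosanoid genes the same test passed for Ptgis (-2.07) and Ptgr1 (-1.76), Cbr1 (-1.14), Mgst3 (-1.10) and Acsl4 (1.55). The calls of Cysltr1 and Ptgis held without any 1 of the 8 libraries, and those of Ptgr1, Cbr1, Mgst3 and Acsl4 were lost without 6, 7, 4 and 6 of them in turn. None of the 6 was called with library weights or in a fit to those 8 libraries alone, and Ptgis and Ptgr1 were not called with a pseudocount of 0.1. With the length correction Ptgr1, Cbr1, Mgst3 and Acsl4 were not called, with median-of-ratios scaling Cbr1 and Acsl4, and with quantile normalization Acsl4.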

How the results depend on the processing

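Of the 27 calls among the 10 genes over 11 comparisons, 20 held without any 1 library. In every alternative run that tested the gene, 17 held, and no called value changed sign. The calls of Alox5 are among these 17 although the filter at 5 FPKM removes Alox5, so they were not tested in that run. The number of the 10 genes called moved as follows. For GM-CSF in cDC1s (1 call) it was 0 with quantile normalization, with library weights and with the compared libraries alone, and 0 to 1 with a library left out, when Cysltr1 took the place of Ltb4r1 without control cDC1s replicate 2. For GM-CSF in cDC2s (1) it was 0 with the compared libraries alone and 1 to 2 with a library left out, the second being Alox5ap without control cDC2s replicate 2 and Ltb4r1 without GM-CSF cDC2s replicate 2. For the difference of the effects (1) it was 0 with library weights and with the compared libraries alone. For control cDC1s against cDC2s (7) it was 4 with the compared libraries alone, 5 with library weights and with the length correction (Ptger4 and Ptgs1 lost), 6 with no filter and with quantile normalization (Ptgs1 lost), 8 with a pseudocount of 0.1 (Alox5 gained) and with median-of-ratios scaling (Alox5ap gained), and 5 to 8 with a library left out. For the treated subsets (4) it was 3 with the compared libraries alone and 3 to 4 with a library left out, Ltb4r1 being lost. For P-III against P-I (1) it was 0 with a filter at 5 FPKM, which removes Alox5, and 2 with library weights. For P-IV against P-I (2) it was 1 with a pseudocount of 0.1, no filter, the filter at 5 FPKM, quantile normalization and median-of-ratios scaling, and 1 in every fit with a library left out. For P-IV against GM-CSF cDC2s (5) it was 4 with quantile normalization, the length correction and the compared libraries alone, 6 with library weights (Ptgs1 gained) and 3 to 5 with a library left out. For DC-Xs against P-IV (0) it was 1, Alox5, with a pseudocount of 0.1 and with quantile normalization. Beyond the causes named, the cause was not tested.

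Counts over all genes moved more. GM-CSF in cDC1s gave 1678 genes, 454 with library weights, 862 with the length correction, 0 with the compared libraries alone and 1004 to 2821 with a library left out. GM-CSF in cDC2s gave 598, then 322 with library weights, 0 alone and 276 to 959. The difference gave 775, then 4 with weights, 254 with the length correction, 2 alone and 286 to 2419. Control cDC1s against cDC2s gave 3599, or 1531 alone, and the treated subsets 1679, or 1046 alone. P-III against P-I gave 398, then 631 with weights and 130 to 259. P-IV against P-III gave 67, then 31 with a pseudocount of 0.1, 184 with weights, 145 alone and 10 to 16. P-IV against P-I gave 827, or 477 at the lowest with a library left out. DC-Xs against P-IV gave 222, then 142 with no filter, 135 with median-of-ratios scaling, 357 with weights, 87 with the length correction, 3 alone and as few as 0 with a library left out. Under quantile normalization the share of calls that were higher moved from 70.2% to 54.5% for GM-CSF in cDC1s and from 35.1% to 51.5% for control cDC1s against cDC2s. A replicate block changed no count of the 10 genes (1, 1, 1, 7, 4, 1, 0, 2, 5, 5 and 0 calls in the order of the comparisons), and the labels give no pairing, although same-numbered libraries deviated together in most pairs of the cDC and DC-X groups (r up to 0.671).

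With 2 libraries per group, and a depth unknown in 5 libraries, the lowest levels (Ltc4s, and Alox5 in P-IV and the cDCs) are close to the limit of detection. A value listed at 0 does not show absence. The CD115-high populations and DC-Xs have no untreated counterpart, so what GM-CSF changed there cannot be told from these data.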
